A study of Mus musculus with 13 samples.

Results

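Vsig8, Mroh6, Klhl42, A930002H24Rik and Igbp1b are 5 protein-coding genes that took an outsized share of the counts in some or all Ribo-seq libraries of mouse oocytes. Their RNA fragments in a second assay numbered from 0 to 22. They are 5 of the 22442 genes listed in the Ribo-seq tables, found there by matching Ensembl identifiers to symbols. They were chosen by measured values, namely their share of counts in the 11 Ribo-seq libraries, the agreement of libraries within a group, the pattern over stages and the counts in acRIP-seq, so these values are given as a description without a test. Only the comparison of genotypes was tested. It was not itself a criterion of the choice, but it uses the same counts. For genes carried by a few libraries it is therefore not independent of the choice.

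Ribo-seq is meant to count fragments of mRNA shielded by a ribosome from RNase I, here on the coding sequence (CDS) of each gene. The study made 11 such libraries, 3 from WT oocytes at the germinal vesicle (GV) stage, 3 from Nat10-ZcKO GV oocytes, 2 from WT oocytes at metaphase II (MII) and 3 from Nat10-ZcKO MII oocytes, to ask which mRNAs are translated differently when the RNA acetyltransferase Nat10 is missing. Nat10-ZcKO stands for floxed Nat10 deleted by Zp3-Cre, a Cre that is active in the oocyte from the primary follicle onward and not in the granulosa cells around it. By the methods, all mice were of the C57BL/6J background and the oocytes came from gonadotropin-primed prepubertal females; whether the MII oocytes of these libraries matured in the animal or in culture is not given in the sources used here. Each library was a pool of oocytes held in cycloheximide before lysis. By the methods, fragments were purified straight from the RNase-treated lysate, and no step that isolates ribosomes is described. Short fragments that survived digestion without a ribosome were thus not separated from footprints. The series record also mentions a tamoxifen injection, a step that the methods describe only for another Cre line. A pair of acRIP-seq libraries, 1 with anti-ac4C antibody and 1 with anti-IgG, counted fragments of poly(A)-captured mRNA from WT GV oocytes. Both are pulldowns and neither is an input, so they give only a rough measure of how much RNA of a gene was present, and they say nothing of MII or of Nat10-ZcKO oocytes.

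GV oocytes are fully grown and arrested in prophase of the first meiotic division, and MII oocytes have matured and wait for fertilization. Transcription is silent over that transition, so the protein made there depends on stored mRNA that is switched on, switched off or degraded. Among the 5 genes, Vsig8 encodes a membrane protein of the immunoglobulin superfamily known mainly from hair and other keratinized tissue. Mroh6 encodes a protein with HEAT-like repeats whose role is little known. Klhl42 encodes a Kelch-like substrate adaptor of Cullin 3 ubiquitin ligases that targets the microtubule-severing protein katanin. Igbp1b is a single-exon copy of Igbp1, whose product alpha4 binds the catalytic subunits of the phosphatases PP2A, PP4 and PP6. A930002H24Rik is named after a cDNA clone and has no established function.

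All 5 have an annotated CDS in GENCODE M21 (GRCm38), and the first bases of these coding sequences show which stretch of the genome the counts belong to. Vsig8 lies on the plus strand of chr1:172555938-172563717 with its CDS in 7 segments, Mroh6 on the minus strand of chr15:75884137-75888770 in 14 segments, and Klhl42 on the plus strand of chr6:147091379-147112778 in 3 segments. A930002H24Rik (chr17:63863300-63863791, minus strand) and Igbp1b (chr6:138657089-138658544, minus strand) each have their CDS in 1 unspliced segment. The first coding bases are given 5′ to 3′ in mouse reference sequence of GRCm38, with an ATG start codon in capitals.
Vsig8, chr1:172556072-172556120: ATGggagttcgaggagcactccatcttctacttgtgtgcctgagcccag
Mroh6, chr15:75888664-75888723: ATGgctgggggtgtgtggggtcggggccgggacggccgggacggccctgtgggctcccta
Klhl42, chr6:147091532-147091591: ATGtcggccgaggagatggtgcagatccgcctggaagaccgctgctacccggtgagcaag
A930002H24Rik, chr17:63863762-63863791: gagtgggcggaggctggagttgcgggcgtg
Igbp1b, chr6:138658385-138658444: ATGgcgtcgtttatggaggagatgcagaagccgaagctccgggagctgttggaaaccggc
Vsig8, Mroh6, Klhl42 and Igbp1b open with an ATG, whereas the annotated CDS of A930002H24Rik does not.

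Vsig8 was the most heavily covered gene of the data set. Its share of all CDS counts was 24.8%, 19.0% and 11.4% in WT at GV, where the Nat10-ZcKO libraries had 13.2%, 19.9% and 18.2%. At MII it was 20.6% and 1.37% in WT, while the Nat10-ZcKO libraries had 6.87%, 13.2% and 13.4%. It was high in every library but WT MII replicate 2, the shallowest of all with 4815 counts, where it had 66 counts (1.37%, exact 95% interval 1.06% to 1.74%). The mean share was 14.7% ± 6.71 (SD, n = 11), and 16.1% ± 5.32 (SD, n = 10) without WT MII replicate 2. Per CDS length, as TPM (counts per base of CDS, scaled to a fixed total), Vsig8 ranked first among all genes in 10 of 11 libraries, from 70764 to 253696 TPM in those, and 7 in WT MII replicate 2 with 16281 TPM. Its highest count, 52963 in WT GV replicate 2, is an average of 127 counts per codon over 417 codons. Where in the CDS these counts lie was not analysed here. Values within a group spread by 2.18-fold in WT GV and by 1.94-fold in Nat10-ZcKO MII. GV and MII shares overlapped.

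Mroh6 came next and varied more. In WT GV libraries its share was 4.81%, 3.00% and 7.88%, and in Nat10-ZcKO GV libraries 1.47%, 1.06% and 4.90%. At MII the WT libraries had 1.49% and 0.457% and those of Nat10-ZcKO 4.13%, 11.2% and 9.62%. The highest values were thus in Nat10-ZcKO MII replicates 2 and 3 and in WT GV replicate 3, and GV and MII libraries overlapped. Its mean share was 4.55% ± 3.63 (SD, n = 11). By TPM it was among the top 10 genes in 10 of 11 libraries, with ranks from 2 to 10, and it ranked 61 in WT MII replicate 2 on 22 counts.

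Klhl42 was a GV gene. Its share was 1.52%, 2.92% and 1.33% in WT GV libraries and 0.678%, 0.706% and 2.30% in Nat10-ZcKO GV libraries. At MII the WT libraries were at 0.0326% and 0, and those of Nat10-ZcKO at 0.0213%, 0.0757% and 0.0382%. All 6 GV libraries were above all 5 MII libraries, and the lowest GV share was 8.96 times the highest MII share. Such a separation in the GV direction was seen for 9.81% of the 3863 genes tested over both stages, and it is a description because the stage pattern served in the choice of the gene. The mean share was 1.58% ± 0.892 (SD, n = 6) at GV and 0.0336% ± 0.0277 (SD, n = 5) at MII, a 47.0-fold difference of means that was 37.6-fold without WT MII replicate 2. In that library the count was 0 of 4815, which allows 623 CPM (3 counts), more than the CPM in WT MII replicate 1 (326), so this 0 does not set the library apart from the other MII libraries, but the limit is below the lowest GV level (6775 CPM). Klhl42 ranked 2 to 8 by TPM in the GV libraries and 159 to 806 in the 4 MII libraries with counts.

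A930002H24Rik was carried by 3 libraries. It had 170, 411 and 2 counts in WT GV, and 0, 3 and 25 in Nat10-ZcKO GV. At MII the WT libraries had 2 and 239 and those of Nat10-ZcKO 14, 0 and 3. WT GV replicates 1 and 2 and WT MII replicate 2 stood apart from the 8 others, which had 25 counts or fewer. In WT MII replicate 2 the 239 counts were 4.96% of the library (exact 95% interval 4.37% to 5.61%) and made it first by TPM with 150824, whereas the other WT MII library had 2 counts of 134843. Replicates thus disagreed in both WT groups. The mean share was 0.478% ± 1.49 (SD, n = 11) and fell to 0.0292% ± 0.0547 (SD, n = 10) without WT MII replicate 2. Without that library the GV mean was 17.3 times the MII mean, and with it the MII mean was 21.3 times the GV mean, so its order of stages rested on 1 library.

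Igbp1b was carried by 2 libraries. Nat10-ZcKO GV replicates 1 and 2 had 138 and 292 counts, or 0.326% and 0.565% of the library, and held 95.8% of all 449 counts of the gene. Among the other GV libraries, those of WT had 2, 0 and 12 counts and Nat10-ZcKO replicate 3 had 5. All 5 MII libraries were at 0. Over their 634047 counts, 0 allows up to 4.73 CPM, and the pooled GV level of 503 CPM was at least 106-fold higher, but 430 of the 449 GV counts came from the pair of libraries. In these it ranked 7 and 6 by TPM. Within the Nat10-ZcKO GV group the shares therefore ran from 0.00180% to 0.565%.

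**Figure D1:**
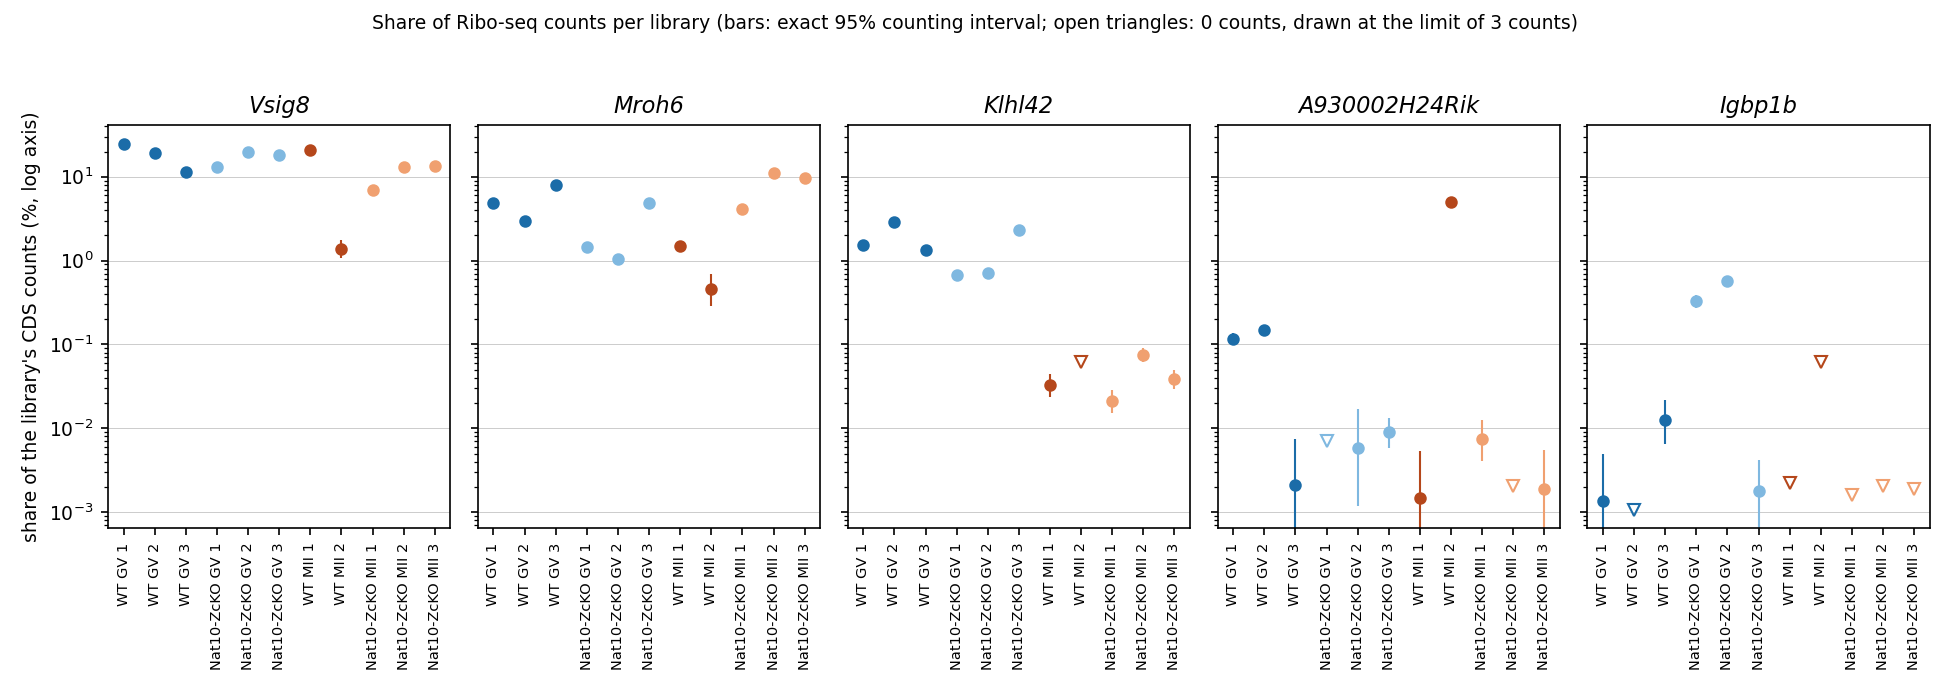
Share of the counts of each library on the 5 genes, in percent on a log axis, with 1 point per library coloured by group, exact 95% counting intervals, and open triangles for 0 counts drawn at the limit of 3 counts. Vsig8 and Mroh6 are high throughout except for WT MII replicate 2, Klhl42 separates GV from MII, and A930002H24Rik and Igbp1b stand high in 3 and 2 libraries.

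High footprint counts were thus seen across libraries for Vsig8 and Mroh6, at GV for Klhl42, and in a few libraries only for A930002H24Rik and Igbp1b. Together the 5 genes held between 6.79% of the counts in WT MII replicate 2 and 31.3% in WT GV replicate 1, with a mean of 20.7% ± 6.99 (SD, n = 11). Taking them out of the total raises the CPM of every other gene by a factor of 1.07 to 1.45, depending on the library. WT MII replicate 2 and Nat10-ZcKO GV replicates 1 and 2 stood apart in other ways as well. The 12 oocyte markers (Zp1, Zp2, Zp3, Gdf9, Bmp15, Padi6 and others) were 5.39% to 7.35% of counts in WT GV and 10.8% in Nat10-ZcKO GV replicate 3, but 0.0142% and 1.44% in Nat10-ZcKO GV replicates 1 and 2, in the first of which 9 of the 12 had no count. At MII they were 1.09% to 1.31% in 4 libraries and 0.0208%, or 1 count, in WT MII replicate 2. The 12 did not all move with this sum, which follows its most counted members and is no measure of oocyte content. Oosp1 had 34 to 75 counts in WT GV but 299 to 660 in those 4 MII libraries, and Gdf9 had 289 to 929 and 628 to 831. In Nat10-ZcKO GV replicate 2, with 51709 counts in total, Oosp1 had 44. The 15 granulosa or cumulus markers were 0.210% to 0.961% in 10 libraries, highest in Nat10-ZcKO GV replicate 1, and 0 in WT MII replicate 2. Nat10 itself had 8, 11 and 3 counts in WT GV, and 4, 1 and 5 in Nat10-ZcKO GV, then 1 and 5 (WT) and 6, 3 and 2 (Nat10-ZcKO) at MII, too few to check the deletion at this depth. Library totals ran from 4815 to 279464 counts.

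Beside these markers, the 2 libraries that carried Igbp1b were the GV libraries lowest in the summed oocyte markers, and Klhl42 was lowest there among the GV libraries. WT MII replicate 2, the library with the most A930002H24Rik, held 0.644% of its counts on the 10 keratinocyte and hair markers (31 counts on 2 of them), against at most 0.0415% elsewhere, but its Vsig8 share was the lowest of all. In the 10 other libraries those markers summed to between 0 counts and 56, the latter in WT MII replicate 1 with 52 on Krt36, while Vsig8 had 5611 to 52963. Of the 10 markers, 7 had a count in at least 1 library, among them the keratin genes Krt36 with up to 52 counts, Krt10 with up to 11 and Krt5 with up to 3, and Krt14, Flg and Dsg1a were at 0 in all 11. The part of the oocyte marker level in the Igbp1b and Klhl42 values was not tested. In pooled oocytes, fewer cells of a type and less RNA per cell cannot be told apart.

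**Figure D2:**
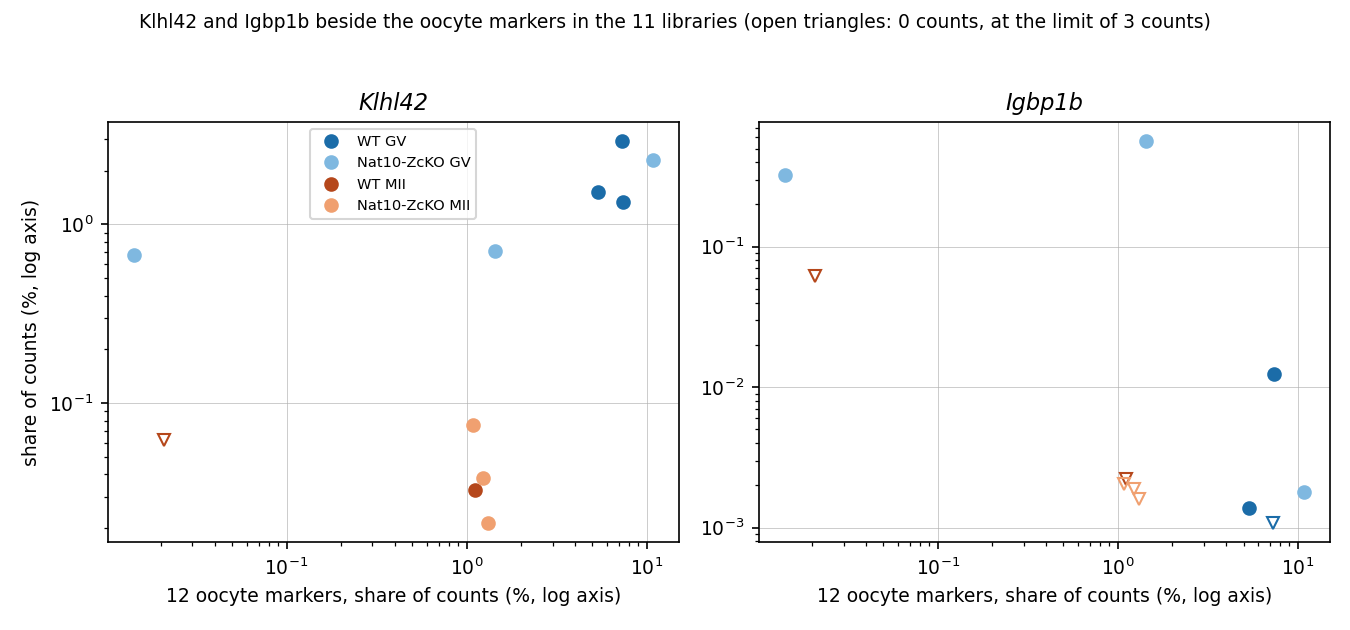
Share of counts on Klhl42 and Igbp1b against the summed share of the 12 oocyte markers in the 11 libraries, both in percent on log axes, coloured by group, with open triangles for 0 counts at the limit of 3 counts. The 2 Nat10-ZcKO GV libraries at 0.0142% and 1.44% of oocyte markers carry Igbp1b, and Klhl42 is high in all 6 GV libraries.

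The genes that made up the outsized shares did not keep a fixed proportion to each other. Mroh6 counts were 15.8% to 69.2% of Vsig8 counts in WT GV, and 5.32% to 26.9% in Nat10-ZcKO GV. At MII the WT libraries had 7.23% and 33.3% and those of Nat10-ZcKO 60.1% to 85.0%, a range of 16.0-fold over 11 libraries. Klhl42 counts were 3.55% to 15.4% of Vsig8 counts in the 6 GV libraries and 0 to 0.574% in the 5 MII libraries. The mean share of Vsig8 itself at GV was 1.60 times that at MII, or 1.31 times without WT MII replicate 2. Klhl42 over Vsig8 thus separated GV from MII libraries, as the Klhl42 share alone did. By CPM, 9.81% of 3863 genes had all GV libraries above all MII libraries. Mroh6 over Vsig8 spread by 4.38-fold to 5.05-fold within 3 groups and by 1.42-fold in Nat10-ZcKO MII, whose libraries were above both WT MII libraries. By CPM alone, 30% of the 2097 genes tested at MII had all Nat10-ZcKO libraries above all WT libraries. No such share was computed for ratios to Vsig8.

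**Figure D3:**
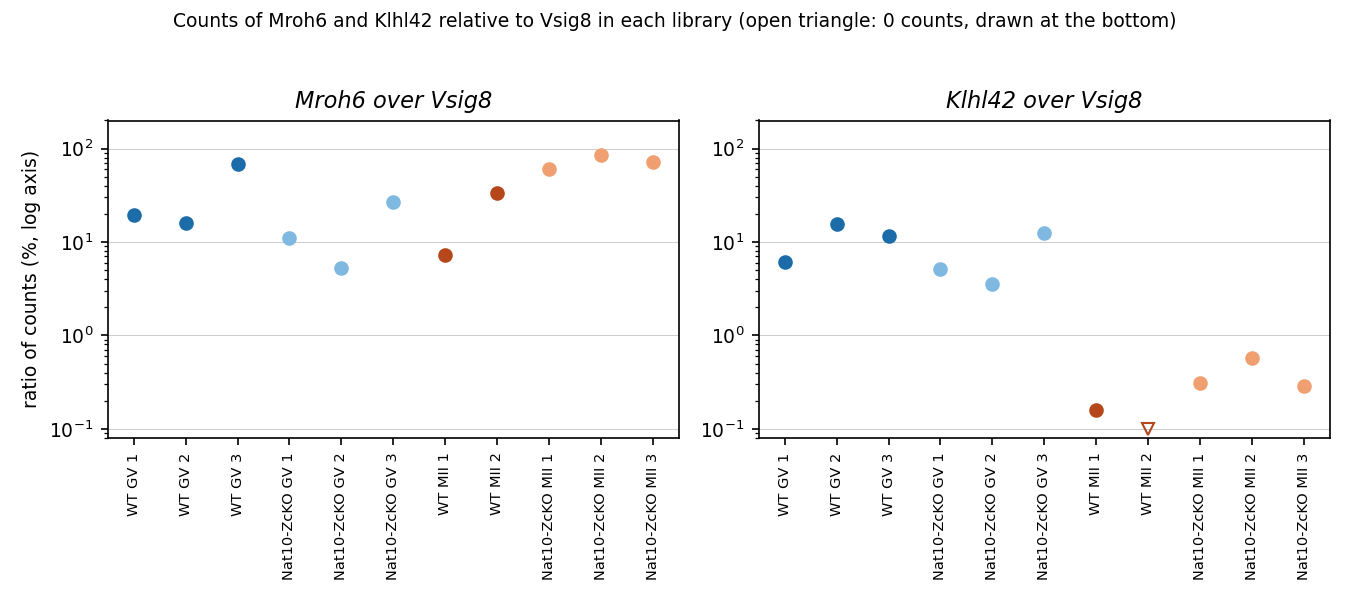
Counts of Mroh6 and of Klhl42 as a percentage of Vsig8 counts in each library, on a log axis, coloured by group, with an open triangle for 0 counts at the bottom. Mroh6 is above 60% of Vsig8 in all 3 Nat10-ZcKO MII libraries and in WT GV replicate 3, and Klhl42 is at 3.55% or more of Vsig8 at GV and at 0.574% or less at MII.

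RNA fragments of the 5 genes were few beside their footprints, but not all were few beside other genes. The acRIP-seq libraries held 116232 counts on genes with anti-IgG and 970997 with anti-ac4C. Vsig8 had 3 and 5 counts, Mroh6 0 and 1, Klhl42 4 and 18, and A930002H24Rik and Igbp1b 0 and 0, in anti-IgG and anti-ac4C respectively. Over both libraries the median gene had 2 counts and 40.0% of 21898 genes had at least 10. Klhl42 with 22 counts and Vsig8 with 8 were above that median, with as many or fewer counts in 69.1% and 59.0% of genes, whereas Mroh6 with 1 and the pair at 0 were below it. Little RNA thus describes Mroh6, A930002H24Rik and Igbp1b in WT GV oocytes, and Klhl42 and Vsig8 only in proportion to their footprints. In WT GV oocytes the footprint level was 183849 ± 67383 CPM for Vsig8, 52269 ± 24674 for Mroh6, 19226 ± 8731 for Klhl42, 887 ± 765 for A930002H24Rik and 46.2 ± 68.4 for Igbp1b (SD, n = 3). Divided by the anti-IgG level, with 1 CPM added to both, this gave ratios of 6857 for Vsig8, 52270 for Mroh6, 543 for Klhl42, 888 for A930002H24Rik and 47.2 for Igbp1b, where the median over all genes in both tables was 1 and the 99th percentile 62.5. Mroh6 and Vsig8 had the top ratios of all 21898 genes, A930002H24Rik ranked 5, Klhl42 11 and Igbp1b 341. Mroh6, A930002H24Rik and Igbp1b had no anti-IgG count, so their ratios and ranks were set by the added 1 CPM. A count of 0 allows 25.8 CPM in the anti-IgG and 3.09 CPM in the anti-ac4C library. Against the larger of the anti-IgG level and its limit, the footprint level was 7123-fold for Vsig8, 2025-fold for Mroh6, 559-fold for Klhl42, 34.4-fold for A930002H24Rik and 1.79-fold for Igbp1b, so that Mroh6 no longer exceeded Vsig8. Against the limit of the deeper anti-ac4C library, where Igbp1b also had 0 counts, its footprint level was 14.9-fold. Its WT GV values ran from 0 to 125 CPM, however. How far footprints of Igbp1b exceeded RNA in WT GV oocytes thus differed with the RNA library used and rests on few footprint counts. Its high footprint counts were in Nat10-ZcKO libraries, for which no RNA was analysed here.

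**Figure D4:**
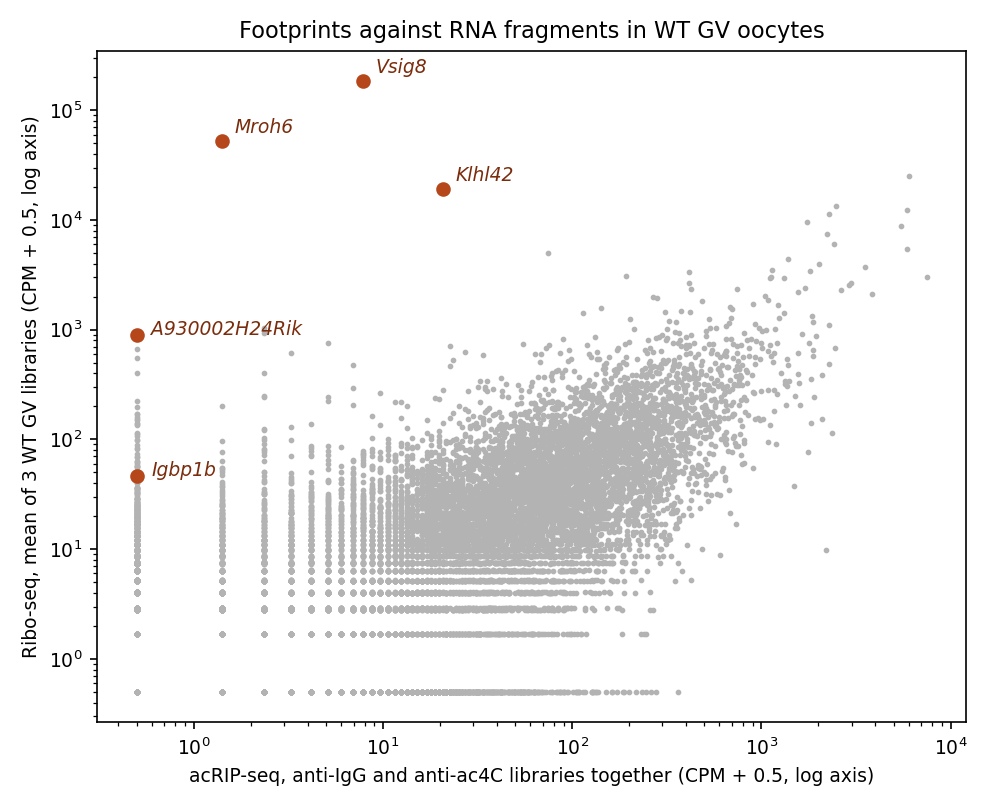
Mean Ribo-seq level of the 3 WT GV libraries against the level in the 2 acRIP-seq libraries pooled, in CPM plus 0.5 on log axes, for 21898 genes (grey) and the 5 genes (red). Vsig8, Mroh6 and Klhl42 lie far above the other genes of the same RNA level, A930002H24Rik lies at the top of the genes with no RNA count, and Igbp1b lies among the others.

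The counts with and without the antibody against ac4C, the RNA modification made by Nat10, served in the choice of the genes and are a description. The anti-ac4C level over the anti-IgG level was 0.200 for Vsig8 (exact 95% interval 0.0388 to 1.28) and 0.539 for Klhl42 (0.177 to 2.19), intervals that cover counting error only. Mroh6 had a single count, and the others had none. There was 1 library of each kind and no test could be made.

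The other genes high in footprints and low in RNA, named by the same share of counts among genes with fewer than 10 acRIP-seq counts, show where the choice ended. Abca3, a lipid transporter, had a median share of 0.0472% over the 11 libraries and a highest share of 3.33%, on 1720 counts, in Nat10-ZcKO GV replicate 2, the library that also had the most Igbp1b. Lmx1b, a homeodomain factor, had all its 138 counts in WT MII replicate 2, and Abca14, another ABC transporter, all its 50. The histone H4 genes Hist4h4 and Hist1h4c were present in at least 10 of 11 libraries, with mean shares of 0.111% ± 0.0733 and 0.0954% ± 0.0489 (SD, n = 11). Just inside, A930002H24Rik had a mean share of 0.478% and Igbp1b one of 0.0824%, the latter below the means of all 5 of these, so the choice of Igbp1b did not follow the share of counts alone. High counts of a gene in 1 library only were thus seen beyond the 5 genes, in Abca3, Lmx1b and Abca14.

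Between genotypes, none of the 5 genes passed the test at either stage. In the edgeR quasi-likelihood test with Benjamini-Hochberg adjustment, 0 of 1765 genes tested (0%) passed an adjusted p of 0.05 between Nat10-ZcKO and WT at GV, with 93 at an unadjusted p under 0.05 and 3 passing in DESeq2, and all 5 genes were among those tested. At MII 4 of 2097 genes (0.191%) passed, and the 4 members tested were not among these. There 48 genes had an unadjusted p under 0.05 and 15 passed in DESeq2, with A930002H24Rik among both. The difference of the genotype effect between stages passed for 31 of 3863 genes (0.802%) and for none of the 5. The median log2 fold change over all genes tested was -0.01 at GV and 0.37 at MII. For the difference between stages it was -1.04 with TMM scaling and -0.15 by library size only, so values of single genes there are to be read against that shift. At GV the groups overlapped for all 5 genes, where 12.8% of genes had all Nat10-ZcKO libraries below all WT libraries and 3.23% had them above. At MII 1.19% had them below, which no member did. Groups of 2 or 3 libraries with the spread described above leave wide errors, so these results do not show equal levels. Nothing in the labels says that libraries of a group came from separate animals, and the p-values then measure the spread between these libraries only.

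Vsig8 had log2 fold changes (Nat10-ZcKO over WT) near 0 with large errors, 0.05 ± 1.48 (SE, adjusted p = 0.989 by edgeR) at GV and -0.07 ± 1.54 (adjusted p = 0.997) at MII. Klhl42 gave -0.48 ± 1.14 (adjusted p = 0.919) at GV and 0.91 ± 1.26 (adjusted p = 0.997) at MII. For these 2 genes the estimate was smaller than its error at each stage. For Mroh6, the values were -0.91 ± 1.29 (adjusted p = 0.908) at GV and 3.18 ± 1.92 (adjusted p = 0.997) at MII. All 3 Nat10-ZcKO MII libraries had more Mroh6 than both WT MII libraries, a separation in this direction that 30% of the 2097 genes tested at MII also showed, and without WT MII replicate 2 the estimate was 2.45 ± 0.97 (adjusted p = 0.621 by edgeR). The GV minus MII difference of its genotype effect was -4.57 ± 3.08 (adjusted p = 0.789).

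These MII results changed where WT MII replicate 1 was left out, so that the 4815 counts of replicate 2 stood alone for WT and were assumed to vary like the other libraries. In that fit 1451 of 2809 genes passed and the median log2 fold change of all genes was 6.52. Vsig8 was then at 5.77 ± 1.17 (adjusted p = 9.49e-06 by edgeR), Mroh6 at 6.94 ± 1.21 (adjusted p = 2.23e-07), Klhl42 at 8.92 ± 2.02 (adjusted p = 8.13e-05) and A930002H24Rik at -7.84 ± 0.56 (adjusted p = 4.21e-41). Vsig8 and Mroh6 were thus within 1 unit of the median of all genes, and the 4 calls rest on the shallowest library.

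The largest estimates belonged to Igbp1b and A930002H24Rik, the genes carried by 2 and 3 libraries. The choice used the share of counts in these same libraries, so the estimates and calls of this pair are not independent of it. Igbp1b was at 6.37 ± 2.03 at GV (adjusted p = 0.905), and 2 of 3 Nat10-ZcKO libraries were above all WT libraries. Under DESeq2 the same contrast gave an adjusted p of 0.0418, with all expressed genes kept 0.0133, and without Nat10-ZcKO GV replicate 3 0.0168. Without replicates 1 and 2, the pair low in oocyte markers, the estimate turned to -0.79 (adjusted p = 0.870). Its call therefore depended on the test and the libraries kept. A930002H24Rik was at -3.80 ± 1.32 at GV (adjusted p = 0.905) and -8.45 ± 2.53 at MII (adjusted p = 0.238, but 0.0487 by DESeq2 and 0.000709 by library size only), and at MII the estimate became 0.91 ± 2.24 without WT MII replicate 2. At GV its sign was the same in all 11 alternatives that could be fitted, from -4.91 to -3.17. The fits without WT GV replicate 1 and without WT GV replicate 2 are not among them, since the gene did not pass the filter there. The constant sign therefore cannot show how the estimate depends on these libraries, which carried the gene. Where Nat10-ZcKO replicates 1 and 2 were left out the estimate was -3.17, from a fit with 1 Nat10-ZcKO library assumed to vary like the WT libraries. Groups overlapped at GV, since WT GV replicate 3 had 2 counts.

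**Figure D5:**
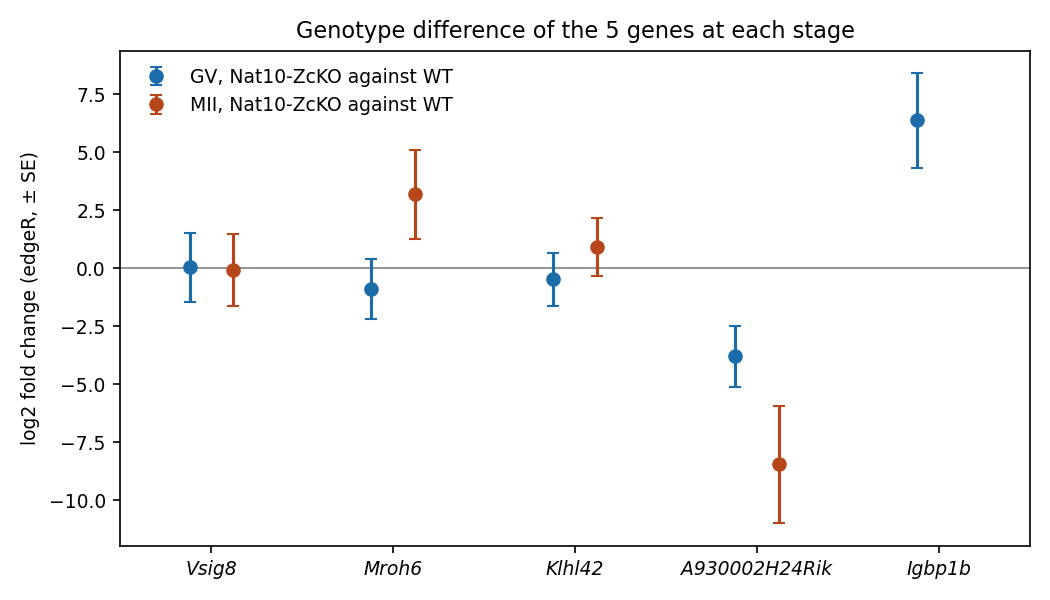
Log2 fold change of Nat10-ZcKO against WT with its standard error from edgeR, at GV (blue) and MII (red), for the 5 genes, without a value for Igbp1b at MII where all libraries were at 0. Estimates for Vsig8 lie at 0, and those for A930002H24Rik and Igbp1b are large with wide errors.

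Leaving the 5 genes out of the table before the TMM scaling factors were computed hardly moved the test. At GV 0 genes still passed, at MII 4, and 29 in place of 31 for the difference between stages. Over all 11 libraries the factors themselves shifted by library, from 0.689 to 0.793 in WT GV replicate 1 and from 0.809 to 0.699 in Nat10-ZcKO MII replicate 1. The 9.57 of WT MII replicate 2 became 8.45.

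Relatives of the 5 genes had few footprints. Per CDS length in WT GV libraries, Vsig8 was at 189228 ± 67732 TPM and Vsig10, the Vsig relative with most counts, at 2.70 ± 4.68 (SD, n = 3). Mroh6 was at 31214 ± 14998 TPM and its relative Mroh1 at 7.32 ± 5.99. Klhl42 was at 16769 ± 7594 TPM and Klhl8, the first of 35 other Klhl genes by counts, at 93.0 ± 36.6. In sum over the 11 libraries the 5 other Vsig genes had 22 counts, the 9 other Mroh genes 81 and the 35 other Klhl genes 1153. In the acRIP-seq libraries the median relative had 0 counts in the Vsig family, 3 in the Mroh family and 6 in the Klhl family, where Vsig8 had 8, Mroh6 1 and Klhl42 22. Of Vsig8, Mroh6 and Klhl42, only Mroh6 was thus below the median of its relatives by RNA. Igbp1b, with 0 counts in both acRIP-seq libraries, was below Igbp1, which had 29 with anti-IgG and 125 with anti-ac4C. Igbp1, the spliced parent of Igbp1b, had 35, 45 and 19 counts in WT GV, and 3, 2 and 67 in Nat10-ZcKO GV, with 0 to 5 in each MII library. In Nat10-ZcKO GV replicates 1 and 2, where Igbp1b had 138 and 292 counts, Igbp1 thus had 3 and 2. Of the 57 relatives and partners, including Cul3, the katanin subunit Katna1, the phosphatase subunits Ppp2ca, Ppp2cb, Ppp4c and Ppp6c and the alpha4-binding ligase Mid1, 4 had enough counts to be tested at GV, 6 at MII and 11 between stages, and 0 passed in each direction in the fits reported here. Without Nat10-ZcKO GV replicate 3, 1 passed upward at GV, and without WT MII replicate 1, 4 passed upward and 1 downward at MII and 1 upward and 5 downward between stages. Igbp1 was at -0.43 ± 0.67 at GV (adjusted p = 0.908), and the PP2A subunit Ppp2ca at 0.50 ± 0.70 (adjusted p = 0.908).

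The coding sequences were compared with those of 22336 genes for features the choice had not used. GC content was 61.3% for Vsig8, 62.6% for Mroh6, 61.3% for Klhl42 and 66.3% for A930002H24Rik (percentiles 92.4 to 98.2 of coding genes), against a median of 51.7%. Igbp1b was ordinary with 54.7% (percentile 65.1). These 5 values are a description without a test. Lengths ran from 489 bases in A930002H24Rik to 2166 in Mroh6 (percentiles 11.8 and 78.4), and the longest run of 1 base was 5 or 6, where the median was 6. No 20-base stretch of the 5 coding sequences matched a structural RNA gene (rRNA, tRNA, snRNA, snoRNA and others, 6618 in all), a match that 5.96% of coding genes had, and the longest exact match was 17 bases, of Igbp1b. The longest match to the 37 primers and oligos of the study was 12 bases.

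Every window of 28 bases within a coding segment of the 5 genes, 1062 in Vsig8, 1788 in Mroh6, 1398 in Klhl42, 462 in A930002H24Rik and 1002 in Igbp1b, occurred once in the reference chromosomes and unplaced contigs on either strand, leaving out patches and loci of other strains. An error-free fragment of that length within 1 coding segment has thus 1 place to map. Fragments across splice junctions and shorter fragments were not searched, and by the methods inserts below 28 bases were also kept. Igbp1b and Igbp1 were 73.6% identical over 1008 aligned columns, with 241 mismatches and a longest exact stretch of 21 bases. The last 60 bases of both coding sequences show how alike the copies can be over the length of a footprint, with 5 differing bases in capitals, printed 5′ to 3′.
Igbp1b, chr6:138657416-138657475, minus strand: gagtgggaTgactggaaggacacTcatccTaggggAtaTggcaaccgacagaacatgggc
Igbp1, chrX:100515643-100515702, plus strand: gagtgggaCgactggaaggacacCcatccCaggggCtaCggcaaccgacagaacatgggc
Fragments shorter than the shared stretch could be placed on both genes, and the fragment lengths behind these counts were not analysed here. The CDS of A930002H24Rik lies wholly within the span of Fer, a kinase gene on the opposite strand, outside its exons, and Fer had 15 counts over all libraries. Of the Vsig8 CDS, 49 bases lie in the span of the noncoding gene 4933439K11Rik, again on the opposite strand and outside its exons. Whether the counting used strand is not given in the sources used here.

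Patterns over the 11 libraries were most alike, by Pearson r of log2(CPM + 1) among 2013 genes with at least 110 counts, between Klhl42 and Aldh2 (r = 0.986), Myh11 (0.980) and Aspscr1 (0.979). Without WT MII replicate 2 the values for Aldh2 and Myh11 were 0.969 and 0.947 (n = 10). Vsig8 was most like Zwint (0.948), Fbxo38 (0.946) and Wdr26 (0.943), but these fell to 0.713, 0.678 and 0.667 without that library, where all 3 genes had no count. Mroh6 was most like the histone gene Hist1h4c (0.861, or 0.851 without it), Ippk (0.850) and Fam117a (0.842). A930002H24Rik was most like Haus8 (0.868), Rassf1 (0.844) and Gja4 (0.820), but without WT MII replicate 2, which carried the gene, these were 0.736, 0.728 and 0.630 and ranked 36, 47 and 180. Igbp1b was most like Stx16 (0.901), Car3 (0.829) and Zwilch (0.811), and Stx16 had 1289 of its counts in the same Nat10-ZcKO GV replicate 2. Among the 5 genes themselves r was highest for Vsig8 and Klhl42 (0.850, and 0.499 without WT MII replicate 2) and was negative between A930002H24Rik and each of the others (-0.487 to -0.314), though without that library it was 0.388 with Vsig8 and 0.439 with Klhl42. The libraries share groups, depth and composition, so the coefficients describe likeness only.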

How the data were processed

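Ribo-seq (11 libraries) and acRIP-seq (2 libraries) of mouse oocytes were analysed from the counts per gene that the authors deposited, 1 library per table, neither normalized nor pooled. The submitters' processing notes name cutadapt, STAR, HTSeq and mm10, without role or version. rRNA removal, strand, and duplicate removal are not given in the sources used here. Rows that name no gene (no feature or ambiguous: 46.7% and 0.392% with anti-IgG, 17.1% and 0.750% with anti-ac4C) were left out. Of 22442 identifiers, 22399 matched GENCODE M21. Library totals were 4815 to 279464 counts, and a count of 0 was taken to allow 3 counts (10.7 to 623 CPM). Intervals are exact (Clopper-Pearson, 95%) and cover counting error only, since amplified fragments are not independent molecules.

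Genotypes were compared with edgeR 4.0.16 in R 4.3.3 (filterByExpr, TMM, glmQLFit, glmQLFTest) on the whole table, with Benjamini-Hochberg adjustment at 0.05, and SE as the absolute log2 fold change over the square root of F. The GV fit held 6 libraries, the MII fit 5 and the fit of the difference between stages 11. The steps were tested on simulated data. Alternatives were DESeq2 1.42.0, other scalings and filters, all libraries in 1 fit, a replicate block and each library left out. Leaving out both Nat10-ZcKO GV libraries low in oocyte markers, and each library in the fit between stages, was chosen after seeing the data. Sequences were read with samtools 1.23.1 and aligned with blastn 2.17.0. The genes named are the 5 members, Nat10, the 5 next genes by share of counts with under 10 acRIP-seq counts, the 3 most alike genes per member, marker genes, and relatives and partners; 4933439K11Rik and Fer were named for their overlap. The members, lists and tests were chosen with earlier results of these data known. Read positions and mRNA libraries were not analysed here.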

Additional observations from a re-analysis of the deposited data

How the results depend on the processing

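Depth was uneven, with 4815 counts in WT MII replicate 2 against up to 279464 elsewhere. Of 177 alternative values of the members' log2 fold changes, 146 kept direction and side of the threshold, 9 kept direction and passed it, and 22 turned sign; the cause was not tested. Genes called at GV were 0 in the reported fit, 3 by DESeq2, 41 with all genes with a count (13004 tested), 23 with all 11 libraries in 1 fit, 78 without both Nat10-ZcKO GV libraries low in oocyte markers, and 0 to 380 with each library left out (380 without Nat10-ZcKO GV replicate 3). At MII 4 genes were called, against 15 by DESeq2 (only 390 genes had an adjusted p), 44 by library size only, 0 with all genes with a count, 2 with at least 10 counts in both WT libraries (32 tested), 19 with all 11 libraries, and 0 to 1451 with each left out (1451 without WT MII replicate 1, where the lone shallow WT library is assumed to vary like the others). Between stages 31 were called, against 49 by DESeq2, 48 by library size only, 10 with all genes, 4 with at least 10 counts in both WT MII libraries, 1 without both low libraries, and 0 to 1209 with each left out (0 without WT MII replicate 2). With the replicate number as a block, GV stayed at 0 called and MII went to 0. Deviations of same-numbered libraries from their group means correlated at r = -0.0480 to 0.000445 at GV, where differently numbered pairs reached 0.0488. At MII the same-numbered pairs were at -0.0234 and 0.145. The deviations of the 2 WT MII libraries mirror each other by construction, so these MII values cannot decide on pairing. Whether same-numbered libraries share more than a number is not settled by these values. Vsig8 at GV turned to -0.40 with all genes, -0.32 with all 11 libraries and -0.47 to 0.27 with each left out; at MII to 0.081, 0.22 (filter of 10 counts), 0.18, 1.27 (block) and -0.92 to 5.77; between stages to 0.020 by library size, 0.077 with the filter, 0.023 without both low libraries and -7.39 to 0.47. Without both low libraries Mroh6 at GV became 0.13, Klhl42 0.45 and Igbp1b -0.79. A930002H24Rik ranged from -8.63 to 0.91 at MII and from -5.01 to 3.79 between stages with each library left out, and passed at MII by DESeq2 (-8.97), by library size only (-10.42) and without WT MII replicate 1 (-7.84). No fold between stages is given for Igbp1b, whose MII libraries were at 0. Mean shares moved by less than 1 SD over libraries, an SD that is itself large: as a share of TPM, A930002H24Rik went from 0.478% to 1.44% and Mroh6 from 4.55% to 2.74%, and without WT MII replicate 2 A930002H24Rik went to 0.0292%. Without scaling to library size the ac4C over IgG ratio was 1.67 for Vsig8 and 4.5 for Klhl42, and with TMM factors it stayed within its interval. Footprints per RNA fragment became 29898 for Vsig8, 25750 for Mroh6 and 984 for Klhl42 with the anti-ac4C library, and 5228 for Mroh6 and 89.7 for A930002H24Rik with a pseudocount of 10 CPM.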
